A study of Homo sapiens with 12 samples.

Results

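The INK4 inhibitors, their kinase targets, the D cyclins and the retinoblastoma protein were followed across 12 RNA sequencing libraries labelled as the lung adenocarcinoma line A549. The 10 genes, CDKN2A, CDKN2B, CDKN2C, CDKN2D, CDK4, CDK6, CCND1, CCND2, CCND3 and RB1, were taken by symbol from the 61541 genes of the count table, and each had exactly 1 row. They were chosen with values known, selected on the near absence of CDKN2A and CDKN2B counts from the knockout columns, so levels in knockout against control are described here without a test. The labels give 4 groups of 3 libraries, all taken 14 days after transduction and all labelled as untreated: a non-targeting guide (gNTC1), the same in co-culture, a Cas9 knockout of TYMS (TS-KO), and the same in co-culture. The knockout cells in co-culture were grown beside parental A549, as the series text states. Every knockout column carries the same guide name, gTYMS2, and the sequence of that guide is not given in the sources used here. The partner of the co-cultured control and any separation of the partners before RNA was taken are not given there either. Nor do they say whether the knockout was 1 clone or a pool. Nothing in the labels says that replicates came from separate cultures, so p-values measure only the spread between these libraries. TYMS encodes thymidylate synthase, which makes the thymidylate used for DNA synthesis.

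D-type cyclins bind and activate CDK4 and CDK6 when cells receive growth signals, and the active kinases phosphorylate RB1 and its relatives, which then release E2F transcription factors to switch on genes for DNA replication. The 4 INK4 proteins block this step by binding CDK4 or CDK6 and keeping them from the cyclins. CDKN2A is unusual in that it encodes both an INK4 protein (p16) and, from another first exon and another reading frame, ARF, which restrains the ubiquitin ligase MDM2. The INK4 locus on the short arm of chromosome 9 is among the regions most often deleted in human cancer, and A549 is known to carry a homozygous deletion that takes in CDKN2A, CDKN2B and the neighbouring gene MTAP, as well as an inactivating mutation of SMARCA4.

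The counts went against the deletion described for A549 in the 6 libraries labelled control. All 6 held CDKN2A, CDKN2B and MTAP transcripts, and SMARCA4, the ATPase of the SWI/SNF remodelling complex, stood at 188 ± 22.5 CPM (counts scaled to library size with TMM factors, here and throughout; mean ± SD, n = 3) in the control grown alone and 169 ± 9.41 CPM in its co-culture. In the 6 libraries labelled knockout, CDKN2A and CDKN2B were at or near 0, MTAP was below 1 CPM, and SMARCA4 stood at 13.5 ± 0.0492 CPM alone and 12.3 ± 1.23 CPM in co-culture. Counts per gene do not show whether SMARCA4 transcripts carry a mutation. In this design, the TYMS knockout and any difference between the source cells of the libraries cannot be told apart, and this holds for every knockout against control value that follows. The comparisons of co-cultured with monoculture cells stay within libraries of 1 label.

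The windows just before the starts of the CDKN2A and CDKN2B transcripts place the locus whose counts were missing. They are from RefSeq (GRCh38.p14), on the minus strand, read 5′ to 3′, with CG dinucleotides in capitals; the first lies before the ARF start at chr9:21995325-21995574, and the second before the CDKN2B start at chr9:22009364-22009555.
CDKN2A (ARF start): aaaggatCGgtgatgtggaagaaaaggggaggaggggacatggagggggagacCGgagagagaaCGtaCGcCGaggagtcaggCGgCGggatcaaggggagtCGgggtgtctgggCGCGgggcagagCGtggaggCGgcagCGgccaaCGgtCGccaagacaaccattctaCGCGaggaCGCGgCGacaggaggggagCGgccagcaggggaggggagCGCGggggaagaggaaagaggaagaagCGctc
CDKN2B: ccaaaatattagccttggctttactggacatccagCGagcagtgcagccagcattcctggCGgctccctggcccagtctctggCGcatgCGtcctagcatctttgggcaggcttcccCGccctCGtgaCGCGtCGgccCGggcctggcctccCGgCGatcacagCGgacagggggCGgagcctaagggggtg
The ARF window holds 24 CG dinucleotides in 250 bases, more than 76.3% of the 35116 RefSeq windows of this length before gene starts, whose median is 11. The CDKN2B sequence, which stops where an annotated exon begins, holds 14 in 192 bases. A second CDKN2A window, at chr9:21974858-21975107 with 20 CG dinucleotides, is not printed, as an annotated exon leaves too little of it. The bases that follow the ARF window were not found in a GENCODE 29 transcript of CDKN2A. Windows were found for 8 of the 10 genes, and CCND1 and CCND2 had none. Counts per gene do not separate the p16 and ARF transcripts of CDKN2A.

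Library totals ranged from 14921371 to 35723762 counts, so 1 count in the shallowest library is 0.062 CPM. TYMS itself stood at 95.4 ± 5.27 CPM in the monoculture control, 93.4 ± 2.67 in the co-cultured control, 20.9 ± 0.547 in the monoculture knockout and, with co-culture, 11 ± 0.36 in the knockout (SD, n = 3). In GENCODE 29, 39.15% of its exon length lies under ENOSF1 on the other strand. All 6 epithelial markers checked (KRT7, KRT8, KRT18, KRT19, EPCAM, CDH1) were above 1 CPM in the control libraries. In the knockout 1 of the 6, EPCAM, was below it. Against the control, 4 of the 6 were called lower and 1 higher in the monoculture knockout (28.6% and 28.0% of all genes). In co-culture 5 were lower and 1 higher (25.3% and 24.1%). The summed level of 10 NRF2 target genes known to be high in A549 was 5630 to 7600 CPM in the control libraries and 11600 to 14900 in the knockout libraries. Of 6 fibroblast markers 5 were below 1 CPM in each group, as were 4 or 5 of 6 leukocyte markers. The 6 fibroblast markers summed to 12.2 to 24.5 CPM across the libraries, so the remaining 1 was expressed in every group. The libraries also differed in how counts followed the GC content of transcripts: the rank correlation of a library's deviation from its group mean with GC, over 16505 genes, ran from -0.757 in co-cultured knockout replicate 3 to 0.736 in co-cultured knockout replicate 2. CDK6 and RB1 have low-GC transcripts, of 39.5% and 37.3%, and CDKN2A and CDKN2D high-GC ones, of 61.4% and 61.3%. Values with per-library GC offsets are therefore given for many of the results, but not for every named gene whose call or value they change. A result printed without one is not thereby stable to GC content. The part of GC content in any difference was not tested beyond these offsets.

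CDKN2A (ENSG00000147889; GRCh38, chromosome 9, 21967753 to 21995301, minus strand) was abundant in every control library and missing from the knockout. Its counts were 1181, 1761 and 2127 in the monoculture control and 921, 2077 and 2042 in the co-cultured control. They were 0, 0 and 0 in the monoculture knockout, and 0, 4 and 0 in the knockout with co-culture. The 4 counts all lay in co-cultured knockout replicate 2, the deepest library, and no control library came near the knockout range. In CPM, the monoculture control stood at 99.3 ± 22.9 and the co-cultured control at 72.5 ± 15.5 CPM (SD, n = 3). Against a floor of 3 counts per library, the monoculture knockout had at least 649-fold less CDKN2A than the monoculture control. In the co-cultured knockout it stood at 0.0661% of the co-cultured control, with an exact 95% interval of 0.018% to 0.169% that covers counting error only; for the monoculture knockout the counts allow up to 0.0618%. Of its exon length 7.877% is shared with CDKN2B-AS1 on the other strand. Within the control, co-culture was not called (log2 ratio -0.45 ± 0.268 SE, edgeR adjusted p = 1); no co-culture difference is given for the knockout, where both groups were at or near 0.

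CDKN2B (ENSG00000147883; chromosome 9, 22002903 to 22009363), which encodes p15, an inhibitor known to be induced by TGF-beta, was low in the control and not detected in the knockout. Its counts were 26, 29 and 36 in the monoculture control, 30, 58 and 71 in the co-cultured control, and 0 in each of the 6 knockout libraries. The control levels were 1.79 ± 0.178 and 2.30 ± 0.561 CPM (SD, n = 3). The knockout was at least 11.7-fold lower alone and at least 20.8-fold lower in co-culture, against the same floor; the low control level bounds these folds. Co-culture was not called within the control (log2 ratio 0.37 ± 0.287 SE, edgeR adjusted p = 1), and its groups overlapped.

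Along the chromosome, the missing counts took in CDKN2A, CDKN2B and MTAP among the genes that were expressed. Of the 60 annotated genes of the table with a start or end within 1 Mb of CDKN2A, itself included, 34 had no count in any library and 9 reached 1 CPM in some group. Exactly 3 genes stood at 1 CPM or more in both control groups and under 1 CPM in both knockout groups: MTAP, CDKN2A and CDKN2B. CDKN2A and CDKN2B meet this through the rule that chose them, so of these only MTAP was free to differ. The share of all genes that meet it was not counted. In monoculture knockout against monoculture control, 28.6% of all genes tested were called lower. MTAP, the enzyme that salvages methylthioadenosine and is often deleted with CDKN2A, stood at 59.5 ± 18.2 and 59.8 ± 5.74 CPM in the monoculture and co-cultured control, against 0.582 ± 0.0568 and 0.471 ± 0.163 CPM in the monoculture and co-cultured knockout (SD, n = 3). That is 0.978% of the control alone (95% interval 0.681% to 1.36%) and 0.821% in co-culture (0.589% to 1.11%). Among genes below 1 CPM, the pseudogene KHSRPP1, named after its values were seen, had 22 and 23 counts in the monoculture and co-cultured control and 2 and 4 in the knockout, at -285.5 kb from CDKN2A.

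CDKN2B-AS1, also called ANRIL, is an antisense RNA of the locus that is known for recruiting Polycomb proteins to it. It runs the other way across CDKN2B, from 21994778 to 22121097, and its direction was the opposite of its neighbours': 1.43 ± 0.266 CPM in the monoculture control, 1.10 ± 0.131 in the co-cultured control, 3.25 ± 0.779 in the monoculture knockout and, with co-culture, 2.76 ± 0.102 in the knockout. Its knockout libraries lay above its control libraries alone and in co-culture, by 1.19 ± 0.253 SE and 1.33 ± 0.252 on the log2 scale. Counts per gene do not say which part of this long RNA the reads came from. The nearest genes that reached 1 CPM on either side were also higher in the knockout: MIR31HG, the host of miR-31, went from 10.6 ± 1.47 CPM in the monoculture control to 15.2 ± 0.771 in the monoculture knockout, and DMRTA1 from 0.217 ± 0.0316 to 2.04 ± 0.504. Their centres lie at -473.9 and 469.8 kb from that of CDKN2A.

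**Figure D1:**
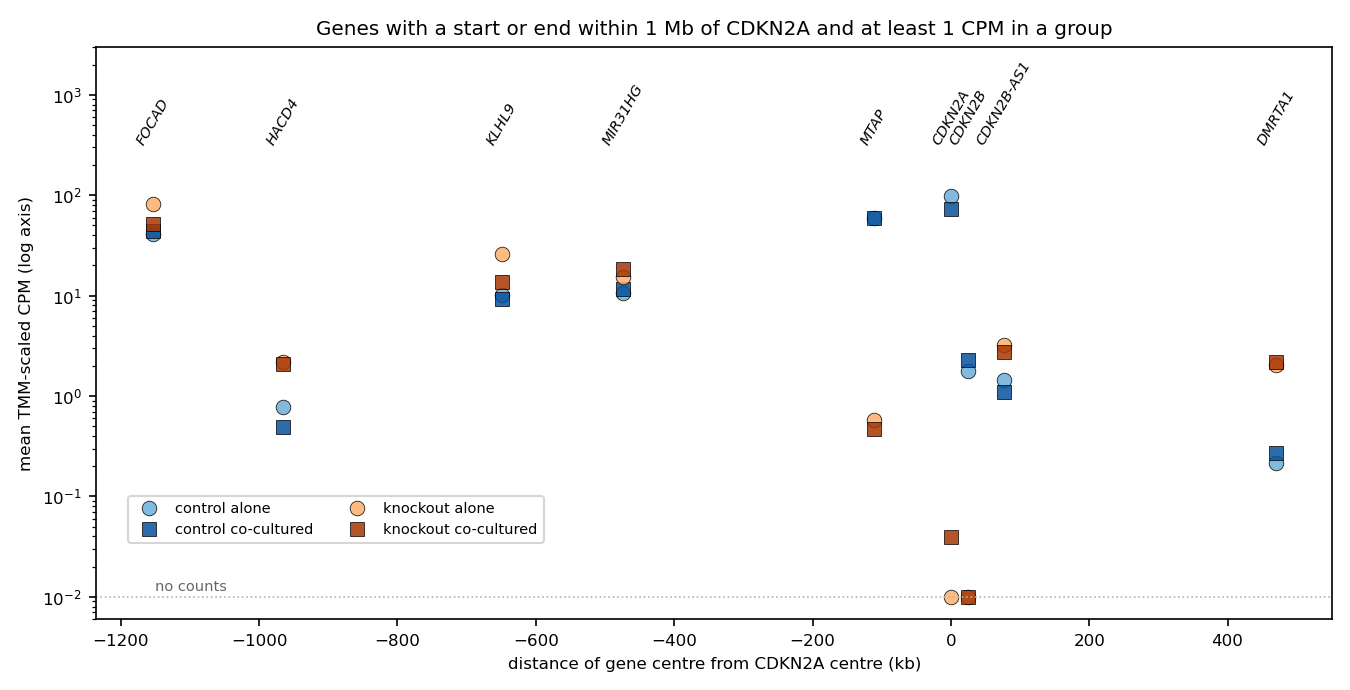
Mean TMM-scaled CPM (log axis) of the 9 genes around CDKN2A that reached 1 CPM in a group, against the distance of their centre from that of CDKN2A in kb; circles are monoculture and squares co-cultured groups (means of 3), and groups without counts sit on the dotted line. MTAP, CDKN2A and CDKN2B lie far lower in the knockout, while MIR31HG, at 15.2 CPM, and DMRTA1, at 2.04 CPM in the monoculture knockout, lie above the control.

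CDKN2C and CDKN2D, the INK4 genes outside chromosome 9, were still expressed in the knockout, at lower levels. CDKN2C (p18; ENSG00000123080; chromosome 1, 50960745 to 50974633) stood at 31, 36 and 39.1 CPM in the monoculture control and 15.9, 17.6 and 20.9 in the monoculture knockout. Its co-cultured libraries gave 27.8, 29.9 and 32.8 CPM in the control and 18.8, 21.1 and 14.2 in the knockout. All 6 knockout values were below all 6 control values. The log2 ratio of knockout against control was -0.965 ± 0.177 SE alone and -0.742 ± 0.176 in co-culture, and -0.49 and -0.58 with GC offsets. Co-culture left it at 18.1 ± 2.57 and 18.0 ± 3.53 CPM in the knockout (SD, n = 3), a log2 difference of -0.00685 ± 0.176 SE (edgeR adjusted p = 0.986); the direction of so small a value turned under several settings.

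CDKN2D (p19; ENSG00000129355; chromosome 19, 10566462 to 10569059) was the INK4 gene that moved with co-culture. Its values were 18.2, 23.5 and 24.7 CPM in the monoculture control and 15.2, 17 and 21.4 in the co-cultured control. They were 4.19, 4.43 and 6.45 CPM in the monoculture knockout, and 10.4, 10.4 and 6.38 in the knockout with co-culture. In the knockout, 2 of the 3 co-cultured libraries stood above all monoculture ones and the other, replicate 3, lay within their range. CDKN2D rose with co-culture in the knockout, by 0.86 ± 0.251 SE on the log2 scale (1.81-fold; edgeR adjusted p = 0.0455). This call is thin: its adjusted p was 0.0711 with the replicate block, 0.132 in a fit of the 2 groups alone, and 0.18, 0.149, 0.177 and 0.149 without monoculture replicate 1, monoculture replicate 2, co-cultured replicate 1 and co-cultured replicate 2, while GC offsets gave 0.63 with an adjusted p of 0.00402. In the control the difference was -0.31 ± 0.242 SE (adjusted p = 1), and the difference between the settings, 1.16 ± 0.348, was not called (adjusted p = 0.124; 0.0227 with GC offsets). Against the control the knockout was lower by a log2 ratio of -2.14 ± 0.257 SE alone (-1.47 with GC offsets) and -0.98 ± 0.245 in co-culture.

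**Figure D2:**
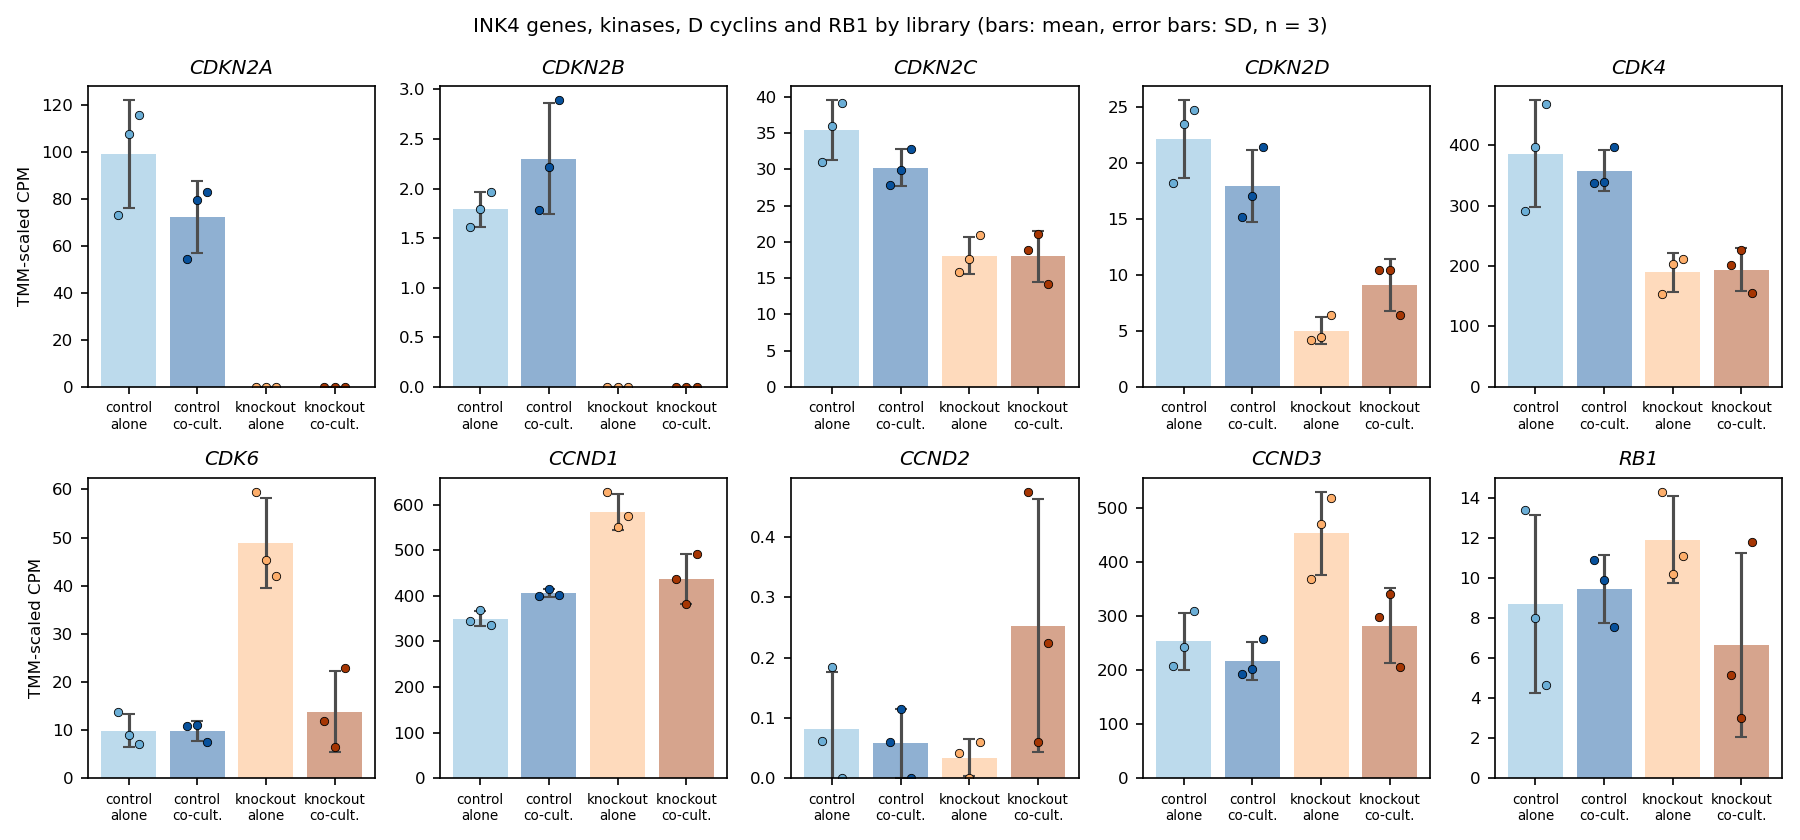
TMM-scaled CPM of each of the 10 genes in the 4 groups; dots are libraries, bars the mean and error bars the SD of 3, each panel on its own linear axis from 0. CDKN2A and CDKN2B are at or near 0 in both knockout groups, and CDK6 is highest in the monoculture knockout, at 42 to 59.5 CPM.

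CDK4 (ENSG00000135446; chromosome 12, 57747727 to 57756013), the more abundant of the kinases, stood at 292, 398 and 468 CPM in the monoculture control and 337, 340 and 397 in the co-cultured control. The knockout libraries gave 153, 204 and 212 CPM alone and 201, 226 and 156 in co-culture. All 6 knockout values were below all 6 control values, with a log2 ratio of -1.03 ± 0.2 SE alone and -0.883 ± 0.199 in co-culture. Co-culture moved it by 0.04 ± 0.198 SE in the knockout (edgeR adjusted p = 0.924) and -0.11 ± 0.198 in the control (adjusted p = 1). Of the exon length of CDK4 43.21% lies under TSPAN31 on the other strand, and the strand setting of the counting is not given in the sources used here. TSPAN31 did not follow CDK4: it stood at 21.8 ± 2.64 and 23.6 ± 1.25 CPM in the monoculture and co-cultured control and 25.4 ± 2.76 and 37.2 ± 1.73 CPM in the monoculture and co-cultured knockout (SD, n = 3).

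CDK6 (ENSG00000105810, chromosome 7, 92604921 to 92836594) showed the largest co-culture difference in the knockout among the 7 tested genes with counts in both knockout groups. It stood at 13.7, 8.99 and 7.05 CPM in the monoculture control, 10.8, 11.1 and 7.46 in the co-cultured control, 59.5, 45.3 and 42 in the monoculture knockout, and 11.8, 6.5 and 23 in the knockout with co-culture. The monoculture knockout libraries stood above all the others, and the co-cultured knockout libraries spanned the control range and went beyond it at both ends. CDK6 fell with co-culture in the knockout, by a log2 ratio of -1.83 ± 0.382 SE (0.281 of the monoculture level; edgeR adjusted p = 0.0108). With GC offsets the difference was -1.40 (adjusted p = 1.78e-05). The call was lost without monoculture replicate 1 (adjusted p = 0.0501), without co-cultured replicate 1 (0.0672) and in a fit of the 2 groups alone (0.0638), at log2 differences of -1.67, -1.73 and -1.83. In the control it was -0.02 ± 0.385 (adjusted p = 1). The difference between the settings was -1.82 ± 0.539 SE and not called (adjusted p = 0.121); it was -1.31 with an adjusted p of 0.00215 with GC offsets. Against the control, CDK6 was higher in the knockout by 2.31 ± 0.393 SE alone and 0.49 ± 0.379 in co-culture on the log2 scale; without co-cultured knockout replicate 3 the second value turned to -0.102.

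CCND1 and CCND3, the D cyclins with appreciable counts, were both higher in the monoculture knockout than in any other group. CCND1 (cyclin D1; ENSG00000110092; chromosome 11, 69641087 to 69654474) stood at 344, 369 and 336 CPM in the monoculture control and 400, 416 and 401 in the co-cultured control. In the knockout it stood at 628, 550 and 574 CPM alone and 437, 383 and 491 in co-culture. Lone and co-cultured libraries did not overlap in either background, and they lay in opposite order: co-culture was higher in the control and lower in the knockout. The log2 difference was -0.42 ± 0.13 SE in the knockout (edgeR adjusted p = 0.0538) and 0.215 ± 0.13 in the control (adjusted p = 1), so neither was called. The difference between them was -0.634 ± 0.183 SE (adjusted p = 0.11). With GC offsets the knockout difference was -0.47 (adjusted p = 0.00237) and the difference between the settings -0.63 (adjusted p = 0.012). Without co-cultured knockout replicate 3 they were -0.507 (adjusted p = 0.0169) and -0.721 (0.0202). Dropping that library also raised the share of all genes called, from 11.4% to 33.4% and from 1.8% to 21.3%. Against the control, the knockout stood higher by 0.74 ± 0.13 SE alone and 0.107 ± 0.129 in co-culture. Of the CCND1 exon length 10.29% is shared with LTO1 on the other strand.

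CCND3 (cyclin D3; ENSG00000112576; chromosome 6, 41934933 to 42050357) stood at 207, 242 and 309 CPM in the monoculture control and 193, 202 and 258 in the co-cultured control. The knockout libraries gave 369, 471 and 519 CPM alone and 299, 341 and 206 in co-culture. The monoculture knockout libraries stood above all the rest. The co-culture difference in the knockout was -0.681 ± 0.215 SE on the log2 scale and missed the threshold (edgeR adjusted p = 0.0583); with GC offsets it was -0.89 (adjusted p = 3.6e-05) and with library size scaling alone -0.748 (0.00675). In the control it was -0.22 ± 0.215 (adjusted p = 1), and the difference between the settings was -0.46 ± 0.303 (adjusted p = 0.396; 0.00714 with GC offsets). Knockout against control was 0.84 ± 0.216 alone and 0.38 ± 0.215 in co-culture.

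CCND2 (cyclin D2; ENSG00000118971; chromosome 12, 4273772 to 4305350) was close to undetected and did not pass the filter on low counts. Its counts were 1, 3 and 0 in the monoculture control, 1, 3 and 0 in the co-cultured control, 1, 0 and 1 in the monoculture knockout, and 11, 2 and 6 in the knockout with co-culture. The co-cultured knockout held the most, 19 counts in all, or 0.253 ± 0.209 CPM (SD, n = 3). At this depth no difference can be read from so few counts, and 13.82% of the CCND2 exon length is shared with another gene model on the same strand.

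RB1 (ENSG00000139687; chromosome 13, 48303726 to 48599436), the brake that the kinases release, varied most between replicates, with a within-group SD of 0.646 on the log2 scale. It stood at 13.4, 8.01 and 4.65 CPM in the monoculture control, 10.9, 9.91 and 7.54 in the co-cultured control, 14.3, 10.2 and 11.1 in the monoculture knockout, and 5.17, 3.01 and 11.8 in the knockout with co-culture. The lowest monoculture control, 4.65 CPM, and the highest, 13.4, took in all the co-cultured control and 4 of the 6 knockout values. The co-culture difference in the knockout, -0.83 ± 0.448 SE on the log2 scale, was not called (edgeR adjusted p = 0.226; -0.42 and 0.146 with GC offsets). This turned on co-cultured replicate 3, without which 33.4% of all genes were called, against 11.4% with all libraries. Without that library the RB1 difference was -1.55 (adjusted p = 0.00584). In the control it was 0.118 ± 0.448 (adjusted p = 1). Knockout against control was 0.451 ± 0.448 SE alone and -0.501 ± 0.447 in co-culture; with GC offsets the first was -0.0621.

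Of the 10 genes, 9 passed the filter on low counts, CDKN2A and CDKN2B only through the control libraries. In co-cultured against monoculture knockout, 1 rose and 1 fell at an adjusted p under 0.05, against 11.4% of the 16768 genes tested (5.97% higher and 5.4% lower). In co-cultured against monoculture control 0 were called, as were 0.0% of all genes by edgeR and by DESeq2. There 540 of the 16768 genes had an unadjusted edgeR p under 0.05, no more than that threshold would pass without any difference. For the difference between the settings 0 were called, against 1.8% of all genes (1.51% higher and 0.286% lower). GC offsets raised these counts to 4 in the knockout (1 higher and 3 lower) and 4 for the difference between the settings, where they also raised the share of all genes called to 29.1% and 8.46%. DESeq2 gave 3 and 3, with 20% and 5.23% of all genes called. In knockout against control, 8 were past the threshold when both were alone (56.6% of all genes) and 5 when both were co-cultured (49.4%); since that contrast chose the genes, nothing is read from these counts. The comparisons of co-cultured with monoculture knockout and of monoculture knockout with monoculture control share the monoculture knockout libraries. In bulk RNA, fewer cells of a kind and less RNA per cell cannot be told apart.

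**Figure D3:**
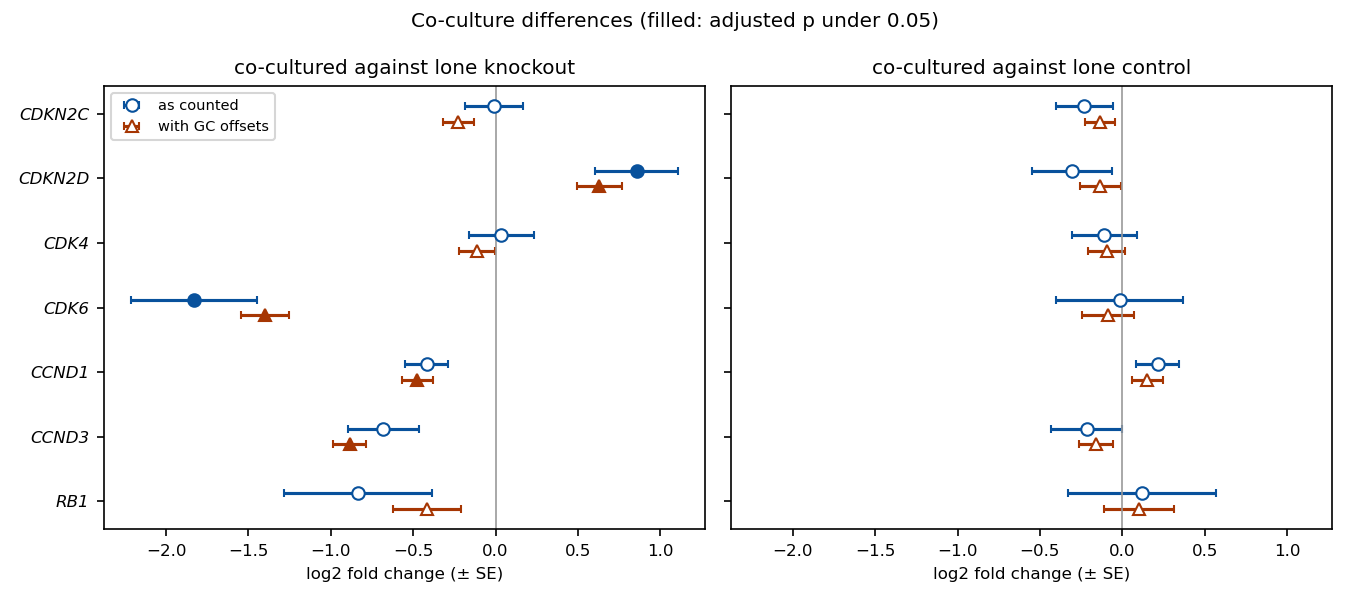
Log2 fold change (± SE) of co-cultured against monoculture libraries in the knockout (left) and in the control (right), from the counts (circles) and with per-library GC offsets (triangles); filled marks have an adjusted p under 0.05. CDKN2D, at 0.86, and CDK6, at -1.83, are the filled circles, and every mark on the right is open.

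Levels of different genes were set beside each other per kb of exon. The INK4 genes summed to 48.8 ± 8.87 CPM per kb in the monoculture control, 38.3 ± 6.32 in the co-cultured control, 8.81 ± 1.59 in the monoculture knockout and, with co-culture, 11.5 ± 2.58 in the knockout (SD, n = 3). CDK4 and CDK6 summed to 123 ± 27.7, 114 ± 10.5, 63.8 ± 9.44 and 62.4 ± 10.4 CPM per kb in the same order. The D cyclins summed to 116 ± 8.27, 121 ± 5.7, 199 ± 8.09 and 139 ± 2.66. The ratio of INK4 to kinase transcripts was thus 0.4 ± 0.0222 in the monoculture control and 0.138 ± 0.0152 in the monoculture knockout. That of D cyclins to kinases was 0.969 ± 0.16 and 3.16 ± 0.432. In the co-cultured knockout these ratios were 0.183 ± 0.0146 and 2.27 ± 0.384. The rule that chose the genes set CDKN2A near 0 in the knockout, so part of the drop in the INK4 sum and ratio was fixed in advance. Outside the rule, CDKN2C went from 10.7 ± 1.24 CPM per kb in the monoculture control to 5.47 ± 0.774 in the monoculture knockout. CDKN2D went from 14.7 ± 2.31 to 3.34 ± 0.825.

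The makeup of the INK4 and kinase classes was as follows. In the monoculture control CDKN2A made up 46.7 ± 2.66% of INK4 transcripts per kb, CDKN2D 30.3 ± 0.834%, CDKN2C 22.1 ± 1.77% and CDKN2B 0.915 ± 0.0965% (SD, n = 3). In the monoculture knockout CDKN2C held 62.3 ± 2.51% and CDKN2D 37.7 ± 2.51%. In the co-cultured knockout their order was the other way in 2 of 3 libraries, at 47.7 ± 2.56% and 52.3 ± 2.57%. That these shares exceed those of the control follows from the rule that left CDKN2A near 0, as both genes were themselves lower in the knockout. CDK6 made up 6.48 ± 2.33% of kinase transcripts in the monoculture knockout, 1.97 ± 1.52% in its co-culture, and 0.721 ± 0.422% and 0.714 ± 0.201% in the monoculture and co-cultured control. For these shares of CDKN2C, CDKN2D and CDK6 the monoculture and co-cultured knockout libraries did not overlap. A two-sided exact permutation test gave p = 0.1, the smallest that 3 against 3 libraries allow (0.3 after adjustment over 18 tests). With CDKN2A and CDKN2B near 0, the CDKN2C and CDKN2D shares mirror each other and are not separate results. The same holds for CDK4 and CDK6. That test gave the same p for CCND2 in the knockout, at very few counts, and for CDKN2B in the control (0.915% alone, 1.47% in co-culture). CCND1 led the D cyclins throughout, at 62.6 ± 5.27%, 69.2 ± 3.53%, 60.9 ± 5.5% and 65 ± 8.41%, and these ranges overlapped.

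**Figure D4:**
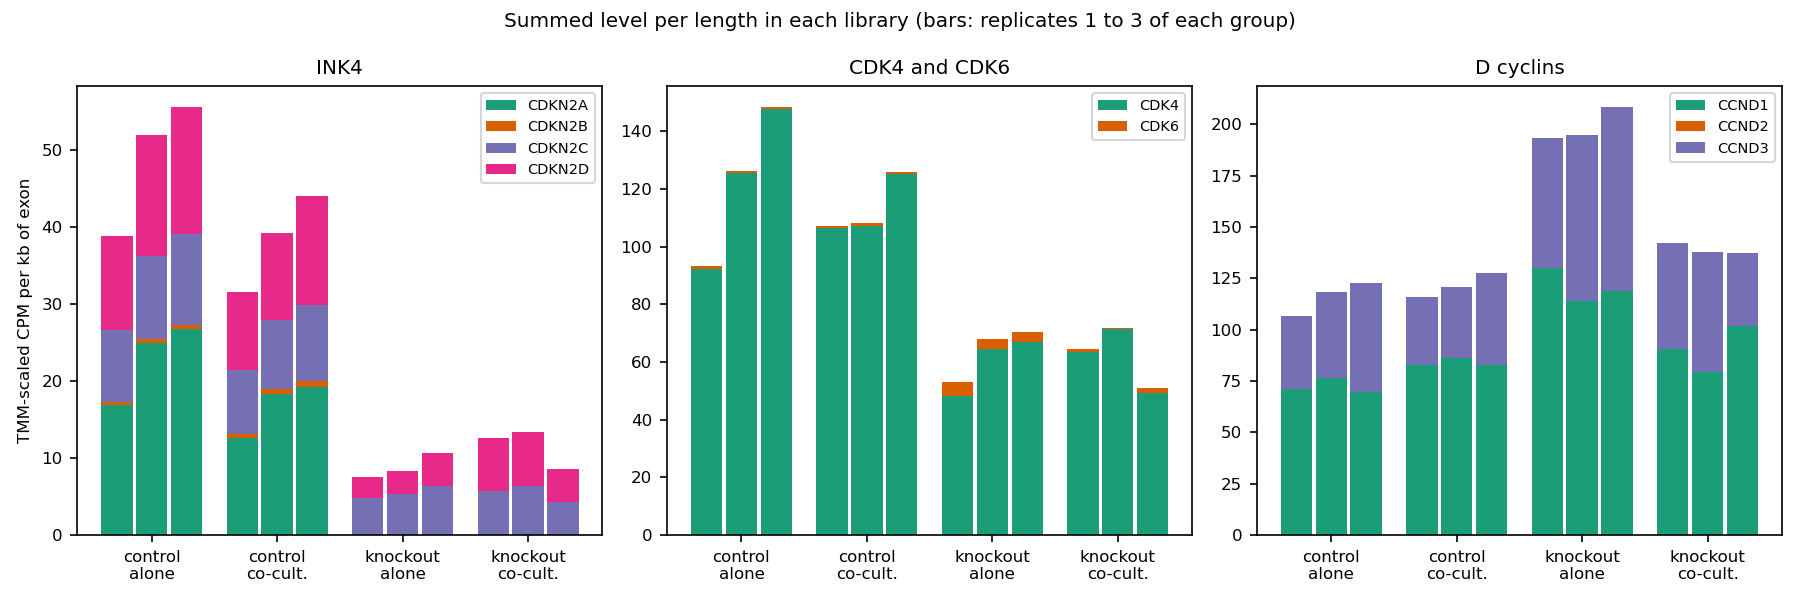
TMM-scaled CPM per kb of exon, stacked by gene, for each library (replicates 1 to 3 of each group from left to right) of the INK4 genes, the kinases and the D cyclins. The INK4 bars of the knockout hold CDKN2C and CDKN2D almost alone and reach 7.57 to 13.3, against 31.6 to 55.6 in the control.

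The rest of the pathway was read from lists of its other genes, each beside the share of all genes called in the same direction (28.0% higher and 28.6% lower in monoculture knockout against monoculture control; 5.97% and 5.4% in co-cultured against monoculture knockout). The CIP/KIP inhibitors, which act on CDK2 as well as on the D cyclin kinases, moved in opposite directions: 1 of 3 was higher and 2 were lower in the monoculture knockout. CDKN1A (p21), the inhibitor known to halt the cycle after DNA damage, stood at 177, 206 and 259 CPM in the monoculture control, 957, 1150 and 1280 in the monoculture knockout, and 2700, 2950 and 1920 in the knockout with co-culture. It was higher in the monoculture knockout than in the monoculture control by 2.40 ± 0.207 SE on the log2 scale (edgeR adjusted p = 8.66e-07) and again with co-culture in the knockout by 1.16 ± 0.199 (adjusted p = 0.00366). CDKN1B (p27), which holds quiescent cells, fell in the monoculture knockout, from 45.9 ± 4.47 to 20.7 ± 2.11 CPM (log2 ratio -1.15 ± 0.154 SE, adjusted p = 3.87e-05), and rose to 34.2 ± 5.58 in co-culture (0.723 ± 0.153, adjusted p = 0.0112; lost without 2 of 6 libraries, at most 0.073 without co-cultured replicate 1). CDKN1C (p57), an imprinted inhibitor, fell from 28.8 ± 8.46 to 0.743 ± 0.484 CPM (-5.30 ± 0.423, adjusted p = 4.35e-07; -4.47 with GC offsets).

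In the CDK2 branch, which follows the D cyclin kinases, 0 of 6 genes were higher and 3 lower in the monoculture knockout, with a median log2 ratio of -0.565 against 0.0868 over all genes. CDK2 fell from 82.8 ± 4.04 CPM in the monoculture control to 34.1 ± 1.77 in the monoculture knockout and rose to 50.4 ± 2.38 in its co-culture (co-culture difference 0.56 ± 0.11 SE, edgeR adjusted p = 0.00755). CDC25A, the phosphatase that activates CDK2, fell from 34.4 ± 2.2 to 16.1 ± 0.703 CPM and stood at 15.7 ± 0.701 in co-culture. Of the 6 genes, 2 were called higher and 1 lower with co-culture in the knockout. SKP2, the ubiquitin ligase subunit that marks p27 for destruction, went from 16.4 ± 1.98 CPM in the monoculture knockout to 7.26 ± 2.43 in co-culture, a log2 ratio of -1.18 ± 0.236 (adjusted p = 0.00893).

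Among the RB relatives, E2F and DP factors, 2 of 12 were higher and 4 lower in the monoculture knockout, and 0 higher and 4 lower with co-culture in the knockout. E2F1, which drives S phase genes, fell from 138 ± 31.6 CPM in the monoculture control to 53.3 ± 11.2 in the monoculture knockout (log2 ratio -1.37 ± 0.23 SE, edgeR adjusted p = 0.000251; -0.634 with GC offsets). E2F2 fell from 55.5 ± 6.33 to 13.4 ± 1.89 CPM, and on to 9.17 ± 0.605 in co-culture (-0.545 ± 0.153, adjusted p = 0.0395; lost without 4 of 6 libraries, at most 0.145 without monoculture replicate 2). RBL2 (p130), the RB relative of quiescent cells, rose from 11.2 ± 2.9 to 21.5 ± 3.06 CPM (adjusted p = 0.0131; 0.0713 without monoculture control replicate 3) and fell to 9.84 ± 4.21 in co-culture (-1.13 ± 0.286, adjusted p = 0.0269; lost without 5 of 6 libraries, at most 0.13 without co-cultured replicate 1). Of the 7 MuvB and MYB partners, which assemble on cell cycle promoters, 0 were higher and 4 lower in the monoculture knockout: MYBL2 fell from 387 ± 80.9 to 135 ± 31.9 CPM (-1.52 ± 0.215 SE on the log2 scale, -0.888 with GC offsets) and FOXM1 from 144 ± 18.1 to 85.8 ± 10.4, FOXM1 then falling to 58.2 ± 5.09 in co-culture (adjusted p = 0.0258; lost without 3 of 6, at most 0.102 without monoculture replicate 2). LIN37 stood at 7.06 ± 0.486 and 10.4 ± 1.01 CPM in the monoculture and co-cultured knockout and was not called (adjusted p = 0.0781).

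Of 17 E2F target genes, 0 were higher and 9 lower in the monoculture knockout against the monoculture control (median log2 ratio -0.457), and 1 was higher and 14 lower in co-culture (median -1), where 24.1% of all genes were higher and 25.3% lower. With GC offsets 15 were lower alone, where 30.6% of all genes were. CDT1, which loads the MCM helicase, fell from 402 ± 95.2 to 64 ± 10.3 CPM (-2.65 ± 0.254 SE, edgeR adjusted p = 2.24e-06; -1.78 with GC offsets), and MCM3, a helicase subunit, from 271 ± 10.3 to 103 ± 4.87. With co-culture in the knockout 0 were higher and 3 lower. CCNA2 (cyclin A2) fell from 29.6 ± 3.25 to 13.9 ± 5.34 CPM (-1.09 ± 0.241, adjusted p = 0.0146; lost without 3 of 6, at most 0.0877 without co-cultured replicate 1), and POLA1, the catalytic subunit of DNA polymerase alpha, from 13.2 ± 1.92 to 4.54 ± 2.71 CPM (-1.55 ± 0.38, adjusted p = 0.0235; lost without 4 of 6, at most 0.121 without co-cultured replicate 1). With GC offsets the co-culture counts were 3 higher and 8 lower, against 15% and 14.2% of all genes.

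The Polycomb genes, whose complexes are known to silence the INK4 locus, showed 3 of 15 higher and 6 lower in the monoculture knockout. CBX7 and CBX2, which read the Polycomb histone mark, fell from 34.9 ± 5.88 to 7.59 ± 1.42 CPM (log2 ratio -2.20 ± 0.211 SE, edgeR adjusted p = 2.24e-06) and from 136 ± 20.5 to 44.7 ± 6.11 CPM (-1.61 ± 0.171, adjusted p = 5.54e-06). With co-culture in the knockout 1 of the 15 was called higher and 1 lower. The lower one, PHC3, fell from 19 ± 5.04 to 6.10 ± 3.67 CPM (edgeR adjusted p = 0.0422, lost without 5 of 6, at most 0.167 without co-cultured replicate 1). Of 9 other regulators of the locus, 3 were higher and 3 lower in the monoculture knockout (5 and 2 with GC offsets). ETS1 and ETS2, known activators of CDKN2A, rose from 5.73 ± 1.03 to 29 ± 3.71 CPM and from 58.9 ± 4.57 to 146 ± 4.63 CPM, in libraries where CDKN2A had no counts. ETS2 then fell with co-culture, to 77.2, 77.1 and 82.4 CPM (-0.884 ± 0.111, adjusted p = 0.000404). JUND, a partner in AP-1, stood at 98.1 ± 26.8 CPM in the monoculture and 176 ± 42.2 in the co-cultured knockout (adjusted p = 0.0512; 5.34e-05 with GC offsets). In the monoculture control it stood at 397 ± 81.2 CPM, and the log2 ratio of knockout to control was -2.02 ± 0.265 SE, or -0.945 with GC offsets.

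Of 12 genes for assembly, activation and turnover of the cyclin D kinases, 6 were higher and 4 lower in the monoculture knockout. CRYAB, part of a ligase for cyclin D1, rose from 2, 1 and 1 counts in the monoculture control to 4.18 ± 0.803 CPM (edgeR adjusted p = 1.77e-07), a ratio of 52.9 whose 95% interval, for counting error of the control alone, is 20.7 to 194. USP2, a deubiquitinase of cyclin D1, fell from 7.16 ± 0.537 to 1.38 ± 0.648 CPM. GSK3B, the kinase that marks cyclin D1 for export and decay, rose from 24 ± 6.18 to 55.9 ± 10.1 CPM and stood at 31.1 ± 11.1 in co-culture (co-culture adjusted p = 0.0535; 0.0131 with GC offsets). With co-culture in the knockout 1 gene was higher and 0 lower (5 and 2 with GC offsets): SERTAD1, which binds CDK4 and blunts its inhibition by p16, rose from 56.8, 73.9 and 77.9 to 234, 236 and 144 CPM (1.56 ± 0.231, adjusted p = 0.00135). On the ARF side, MDM2, the ligase that ARF holds back, rose from 13.9 ± 7.37 to 104 ± 21.4 CPM in the monoculture knockout (2.91 ± 0.49 SE on the log2 scale, edgeR adjusted p = 0.000267). With co-culture, HUWE1 and MDM4 fell, from 527 ± 40.7 to 326 ± 56.7 CPM (adjusted p = 0.0235; lost without 4 of 6, at most 0.12 without co-cultured replicate 1) and from 15.3 ± 3.21 to 5.22 ± 3.99 CPM (adjusted p = 0.0478; lost without 5 of 6, at most 0.191 without the same library). MDM2 at 61.2 ± 45.4 CPM and NPM1 at 342 ± 129 CPM in the co-cultured knockout were not called against the monoculture one (adjusted p = 0.265 and 0.509).

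**Figure D5:**
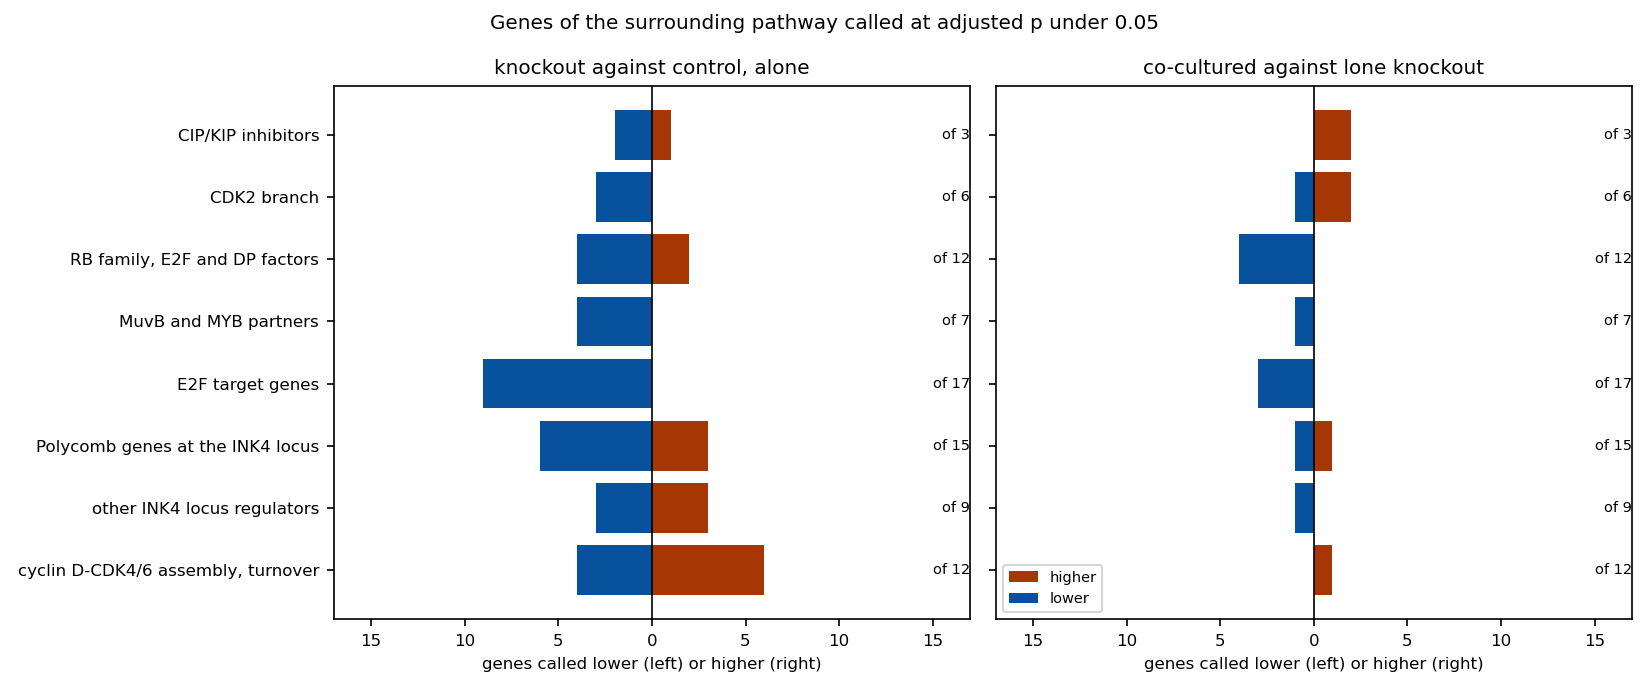
Number of genes of 8 surrounding lists called higher (right) or lower (left) at adjusted p under 0.05 in monoculture knockout against monoculture control and in co-cultured against monoculture knockout, with the number tested at the right edge. The E2F target genes give 9 lower and 0 higher in the first comparison and 3 lower and 0 higher in the second.

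Genes with the profile most like that of each of the 9 tested genes were ranked by the Pearson correlation of log2 CPM over the 12 libraries, among the 10260 other genes with a symbol and a mean of at least 5 CPM. All 12 libraries share the split by label, so high values are common. CDKN2A was most like CBLC (r = 0.9994), with 934 genes above 0.95, CDK4 most like PRMT1 (0.9981), with 1148, CDKN2C most like REXO1 (0.9982) and CDKN2D most like EVI5L (0.9965). CDK6 was most like ZNF532 (0.9906; 210 genes above 0.95) and RB1 most like ZMYND11 (0.9826; 128 genes). The D cyclins had few companions: CCND1 was most like CHN1 (0.9728), with 12 genes above 0.95, and CCND3 most like PFAS (0.9679), with 3.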

How the data were processed

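RNA sequencing counts were analysed in 12 libraries, 4 groups of 3, each library placed by its own label and each column by its name. The authors deposited raw counts, whole numbers per Ensembl gene. The submitters' processing notes name FastQC, STAR 2.7.9a, featureCounts, R 4.2.1, DESeq2 1.36.0 and GRCh38 (hg38), with no role or order; annotation release and strand setting are not given in the sources used here. Symbols were matched for 61369 of 61541 genes, and 58366 were found in GENCODE 29 (GRCh38), which gave positions, exon lengths and GC content.

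Counts were fitted in R 4.3.3 with edgeR 4.0.16: filterByExpr on the 4 groups (16768 genes kept), TMM scaling, 1 model of 4 group means, the robust quasi-likelihood F-test and Benjamini-Hochberg adjustment over all genes within each of 5 comparisons; calls were made under an adjusted p of 0.05. The biological coefficient of variation was 22.1%. SE are those of the log2 fold change, worked back from the test as its absolute value over the square root of the F statistic. Groups at 3 counts or fewer per library were given bounds against 3 counts per library; intervals and floors cover counting error only. Totals were 14921371 to 35723762 counts. Replicates differed by more than counting noise (chi-square per gene 8.84 to 134), so none was counted as a repeat. Alternatives were library size scaling, RLE scaling, other filters, DESeq2 1.42.0, a fit of 2 groups, replicate number as a block, GC offsets (lowess span 0.3), and leaving out each library.

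The 10 genes and the 9 pathway lists (86 genes) were chosen with earlier results of these data known. Genes named besides the members were the 2 with the smallest p of each list in each of 2 comparisons, all genes of lists of 5 or fewer, the flanking genes at 1 CPM, and the most similar genes. No list was tested as a set. Some list genes that the rule picks are not reported here.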

Additional observations from a re-analysis of the deposited data

Results flagged for a closer look

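Among the 86 pathway list genes and TYMS, 4 passed the test of the co-culture difference in the knockout against that in the control. Of all 16768 genes tested, 301 passed it. CDKN1A rose with co-culture in the knockout and not in the control (difference between the settings 1.26 ± 0.28 SE on the log2 scale, edgeR adjusted p = 0.0402). With GC offsets it was 0.943 (adjusted p = 8.43e-05), and without co-cultured control replicate 2 the adjusted p was 0.13. SERTAD1 gave 1.75 ± 0.322 (adjusted p = 0.0146; 0.0607 without co-cultured control replicate 2). ETS2 gave -0.951 ± 0.157 (adjusted p = 0.00783; at most 0.0398 when any 1 library was left out). TYMS, the targeted gene, gave -0.887 ± 0.153 (adjusted p = 0.0107): it fell with co-culture in the knockout, and in the control the difference was -0.03 ± 0.106 (adjusted p = 1). Of the 10 genes 0 passed this test in the edgeR fit, where 1.8% of all genes did. Groups of 3 libraries were not searched for single outlying libraries.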

How the results depend on the processing

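Genes called in co-cultured against monoculture knockout numbered 1907. They numbered 3347 with DESeq2, 4887 with GC offsets, 3340 with no filter, 664 with only the 2 groups, and between 536 (co-cultured replicate 1 left out) and 5680 (co-cultured replicate 3 left out) when 1 library was dropped. For the difference between the settings the count was 301; it was 877 with DESeq2, 1418 with GC offsets, 1342 with no filter, and 119 (without co-cultured control replicate 2) to 3623 (without co-cultured knockout replicate 3). Co-cultured against monoculture control gave 2 with no filter against 0. The share called higher with co-culture in the knockout was 52.5%, 69.6% with library size scaling alone, 71.5% with only the 2 groups, and 36.6% (without co-cultured replicate 3) to 75.7% with a library left out; for the difference between the settings it was 84.1%, 64.9% with DESeq2, 58.5% with GC offsets, 54.7% with no filter and 33.1% without co-cultured knockout replicate 3, so that most calls were then lower. Library size scaling moved the median log2 ratio of all genes from 0.0868 to 0.244 in monoculture knockout against monoculture control. Counts in both knockout against control comparisons stayed within 1.5 times. The causes were not tested.

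Replicate numbers did not pair the libraries in every group: same-numbered deviations correlated from -0.54 to 0.491, and not every library correlated best with its own number. The correlation of deviations with GC did follow the number in the monoculture control, co-cultured control and monoculture knockout. It was -0.619, -0.472 and -0.547 in their replicates 1, and 0.587, 0.575 and 0.532 in their replicates 3. In the co-cultured knockout the signs were the other way, at 0.354 and -0.757. Whether the numbers mark batches was not tested. With replicate number as a block the counts were 1080 and 179, and 4159 and 868 when GC offsets were added. The block lost CDKN2D in the knockout (adjusted p = 0.0711).

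Of 380 alternative values of the 9 tested genes in the co-culture comparisons, 323 kept direction and call, 9 lost the call, 24 gained it and 24 turned direction. Only CDKN2D and CDK6 in the knockout were called in the main fit, so only their values could lose a call, and all 9 losses were theirs. Most of the 323 were values without a call in either fit. CDKN2C in the knockout turned to 0.0677 with DESeq2, 0.0673 with RLE scaling, 0.102 with a 1 CPM filter, 0.129 with no filter and 0.0954 to 0.144 with a library left out (whole range -0.147 to 0.144); its difference between settings turned to -0.0927 with GC offsets and -0.0938 with the block added. CDK4 in the knockout turned to -0.112 with GC offsets, -0.0254 with library size scaling and -0.104 with block and GC offsets, and ranged from -0.0997 to 0.173 with a library left out. In the control CDK4 ranged from -0.275 to 0.0498. Its difference between settings turned to -0.0174, -0.000344 and -0.0136 under the same 3 settings, and ranged from -0.027 to 0.313. CDK6 in the control turned to 0.0151 with library size scaling, 0.00299 with no filter and 0.0184 with the block, and ranged from -0.217 to 0.288. RB1 in the control ranged from -0.19 (without monoculture replicate 3) to 0.577. In co-cultured knockout against co-cultured control, CDK6 ranged from -0.102 to 0.808 with a library left out. In monoculture knockout against monoculture control, MDM4 turned to -0.152 with GC offsets and -0.15 with the block added, and NPM1 to -0.214 and -0.206. NPM1 in the knockout turned to 0.0648 and 0.0556 under those 2 settings. A fit of 2 groups cannot give the difference between settings.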
